A study of Mus musculus with 13 samples.

Results

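In Nup210 knockout 4T1 cells, 16952 genes carried a listed peak of H3K4me3 near the transcription start site (TSS), of H3K27me3 on the gene body, or of both, out of 18562 genes named in any peak list of the series. Genes were classed within the knockout line by symbol. H3K4me3 alone was listed for 11836 genes (69.8% of those classed), H3K27me3 alone for 4515 (26.6%) and both marks for 601 (3.55%, 95% Wilson interval 3.28 to 3.83%). The genes with both marks were 4.83% of all 12437 H3K4me3 genes (4.47 to 5.22%) and 11.7% of all 5116 H3K27me3 genes (10.9 to 12.7%).

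4T1 is a mouse mammary tumor line of BALB/cJ origin. The knockout line (KO) is KO-N13, made with CRISPR/Cas9 and a guide RNA against Nup210 and grown from a single cell, so it is 1 clone. The control line (sg-Ctrl) carried a nontargeting guide. Each mark was profiled by ChIP-seq in 1 library of KO and 1 of sg-Ctrl cells, fixed after 48 h in culture, and NUP210 and several pore proteins together (NPC) in sg-Ctrl cells only. There are no replicates, so no difference was tested and the clone, the culture and the library cannot be told apart from the knockout. All intervals are 95% intervals that cover counting error only.

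H3K4me3 is deposited by COMPASS (Trithorax) methyltransferases at the starts of active or inducible genes. H3K27me3 is deposited by Polycomb repressive complex 2 over silenced developmental and lineage genes, often as domains that span whole genes. Promoters that carry both marks are called bivalent when both lie on the same nucleosomes, a state best known from developmental regulators in stem cells. A peak list from a cell population cannot show whether both marks were on the same allele or in the same cell.

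H3K4me3 peaks were listed when they met the 4 kb on either side of a TSS, and H3K27me3 peaks when they met a gene body. Reads were divided by the size of the ChIP library relative to its IgG library, 1.35 for H3K4me3 and 2.68 for H3K27me3 in KO, and are called scaled reads. Per kb of peak they are a density. For genes with several peaks the densest was used. In KO the H3K4me3 list held 10854 distinct peaks with 24873356 reads and the H3K27me3 list 8874 peaks with 26811061 reads. The KO library was 3.16 times as large as that of sg-Ctrl for H3K27me3 and 1.27 times for H3K4me3. All 12 epithelial markers, among them Epcam, Cdh1 and Krt8, were H3K4me3 only in KO. Among 5 mammary lineage markers, Gata3, Foxa1 and Esr1 were H3K4me3 only, Elf5 was H3K27me3 only and Tfap2c had both marks. All 4 neuronal markers were H3K27me3 only. Of 6 haematopoietic markers 2 (Ptprc and Cd3e) were H3K27me3 only and 4 had neither mark. Of 5 stromal markers, Col1a1 and Pdgfra were H3K4me3 only, Col3a1 and Dcn H3K27me3 only, and Pdgfrb had neither. Nup210 itself was H3K4me3 only, with 242 scaled reads per kb in KO and 321 in sg-Ctrl, and a promoter mark does not check a coding deletion.

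Promoters of the classes are shown here because the sequence at the TSS was not used to class the genes. The lines below give the 250 bases before the TSS (RefSeq, GRCm38.p6, gene strand, 5′ to 3′), with CpG dinucleotides in capitals. They are the highest-ranked genes by read density whose TSS lay inside the peaks and that had a RefSeq promoter. These 4 had a TSS inside listed peaks of both marks: Cldn25 (chr16:58727660-58727909, plus strand), Ei24 (chr9:36797335-36797584, minus strand), Aldh1a1 (chr19:20601718-20601967, plus strand) and Asns (chr6:7693210-7693459, minus strand). In Cldn25, Ei24 and Asns the peaks overlapped in part, and H3K27me3 covered 1.44%, 2.15% and 1.01% of the gene. It reached 0.091 kb into Cldn25 and 0.393 kb into Ei24, less than the 1000 bp window of the peak call. Aldh1a1 was wholly covered by H3K27me3. Stxbp5l (chr16:37384959-37385208, minus strand) and E030003E18Rik (chr19:20492465-20492714, plus strand) carried H3K27me3 only, and Rad51b (chr12:79297032-79297281, plus strand) and Zfyve26 (chr12:79296283-79296532, minus strand) H3K4me3 only.
Cldn25: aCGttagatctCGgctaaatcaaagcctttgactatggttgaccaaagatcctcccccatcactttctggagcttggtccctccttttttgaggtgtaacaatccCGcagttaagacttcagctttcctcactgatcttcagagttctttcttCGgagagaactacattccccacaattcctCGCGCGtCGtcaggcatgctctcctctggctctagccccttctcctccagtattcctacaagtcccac
Ei24: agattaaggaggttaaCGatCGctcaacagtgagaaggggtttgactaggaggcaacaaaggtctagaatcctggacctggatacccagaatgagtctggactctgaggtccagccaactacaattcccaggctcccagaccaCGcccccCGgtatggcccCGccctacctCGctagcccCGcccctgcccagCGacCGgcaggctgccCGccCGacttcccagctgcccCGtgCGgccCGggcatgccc
Aldh1a1: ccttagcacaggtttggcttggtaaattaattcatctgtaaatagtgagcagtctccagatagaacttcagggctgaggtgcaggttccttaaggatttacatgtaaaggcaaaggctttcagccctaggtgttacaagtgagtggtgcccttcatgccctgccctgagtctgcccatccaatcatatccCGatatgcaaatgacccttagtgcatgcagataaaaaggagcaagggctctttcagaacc
Asns: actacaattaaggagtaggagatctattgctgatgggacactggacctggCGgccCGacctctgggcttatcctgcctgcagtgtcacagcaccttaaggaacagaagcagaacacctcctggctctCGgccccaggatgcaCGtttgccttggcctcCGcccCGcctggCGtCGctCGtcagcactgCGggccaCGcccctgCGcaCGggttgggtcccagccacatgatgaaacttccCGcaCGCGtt
Stxbp5l: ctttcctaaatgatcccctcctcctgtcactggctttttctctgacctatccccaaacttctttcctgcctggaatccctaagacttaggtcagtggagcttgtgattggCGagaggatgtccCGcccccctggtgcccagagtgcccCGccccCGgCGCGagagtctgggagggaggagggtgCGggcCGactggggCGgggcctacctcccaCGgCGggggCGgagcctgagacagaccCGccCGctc
E030003E18Rik: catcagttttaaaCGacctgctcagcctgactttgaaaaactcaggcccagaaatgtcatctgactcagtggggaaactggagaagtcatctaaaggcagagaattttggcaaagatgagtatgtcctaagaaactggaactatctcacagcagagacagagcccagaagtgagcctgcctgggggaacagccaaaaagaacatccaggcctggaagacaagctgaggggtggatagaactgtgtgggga
Rad51b: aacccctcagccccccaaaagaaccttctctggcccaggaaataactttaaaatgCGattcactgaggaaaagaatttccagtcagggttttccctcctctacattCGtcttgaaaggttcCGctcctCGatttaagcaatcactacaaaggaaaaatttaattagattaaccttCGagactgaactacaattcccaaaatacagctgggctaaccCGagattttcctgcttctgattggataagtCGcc
Zfyve26: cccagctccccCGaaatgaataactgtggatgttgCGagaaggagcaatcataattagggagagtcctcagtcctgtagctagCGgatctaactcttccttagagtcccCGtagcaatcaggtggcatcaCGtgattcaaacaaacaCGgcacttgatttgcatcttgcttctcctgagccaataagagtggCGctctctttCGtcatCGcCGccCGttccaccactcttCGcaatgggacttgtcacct

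The windows differed in their number of CpG. The Asns promoter held 16 CpG and the Ei24 promoter 14, at CpG observed over expected ratios of 0.682 and 0.574. That of Cldn25 held 8. The Aldh1a1 promoter held 1 CpG (0.0743). Among the H3K27me3-only genes, Stxbp5l had 14 CpG and E030003E18Rik 1. Rad51b and Zfyve26 start head to head from 1 shared H3K4me3 peak of 5800 bp and had 7 and 12 CpG.

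Over all matched genes, promoter CpG content was highest in H3K4me3-only genes and lowest in H3K27me3-only genes, with genes carrying both marks between them. Promoters were read by gene name from NCBIM37 (250 bases before to 50 after the TSS), which matched 93.5% of H3K4me3-only genes, 89.9% of H3K27me3-only genes and 93.3% of genes with both. A single annotated TSS was read per gene name, whether or not a listed peak covered it. The median CpG observed over expected was 0.774 (0.768 to 0.779) for H3K4me3 only, 0.611 (0.574 to 0.654) for both marks and 0.244 (0.231 to 0.255) for H3K27me3 only. The intervals of the 3 classes did not overlap, but they treat genes as separate observations. In 36.6% of H3K27me3-only genes the densest H3K27me3 peak was listed for another gene too. A ratio of at least 0.6 was found for 72.8% of H3K4me3-only genes, 51.5% of genes with both marks and 18.1% of H3K27me3-only genes. Among genes with both marks the CpG-rich ones and the others had similar H3K4me3 densities, with medians of 195 (162 to 224) and 173 (153 to 224) scaled reads per kb.

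Carrying both marks did not mean carrying both at the same place. Of 598 genes whose peaks lay on 1 chromosome, 234 (39.1%, 35.3 to 43.1%) had an H3K4me3 peak that overlapped an H3K27me3 peak by at least 1 bp, and 169 (28.3%) by at least 1 kb. Another 3 symbols (Gm5512, Gm5643 and Mir684-1) had their marks on different chromosomes, at different copies of the name. In 165 genes (27.6%, 24.2 to 31.3%) the whole H3K4me3 peak lay inside an H3K27me3 peak, and in 69 (11.5%, 9.22 to 14.3%) the peaks overlapped in part. In 178 genes (29.8%) the peaks were separate by at most 10 kb, and in 186 (31.1%) by more. Peaks that did not overlap lay a median of 11 kb apart (7.6 to 14 kb, n = 364). The H3K27me3 peak was then downstream of the promoter in 322 of 364 genes (88.5%, 84.8 to 91.3%), a direction favoured by a list that holds only H3K27me3 peaks meeting gene bodies. Wwox, a tumor suppressor gene that spans a fragile site, had the widest separation, with 617 kb between its promoter peak and a 3000 bp H3K27me3 peak. An H3K27me3 peak covered a TSS with H3K4me3 in 225 of the 598 genes (37.6%).

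Of the 364 genes with separate peaks, 24 (6.59%) had H3K27me3 over another listed TSS of the same gene more than 4 kb away. These included Nfia, Satb1, Sox6, Jazf1 and Ctnna3. In Sox6, a SOX transcription factor, the second TSS lay 43.7 kb from the one with H3K4me3, and in Schip1 429 kb away.

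**Figure D1:**
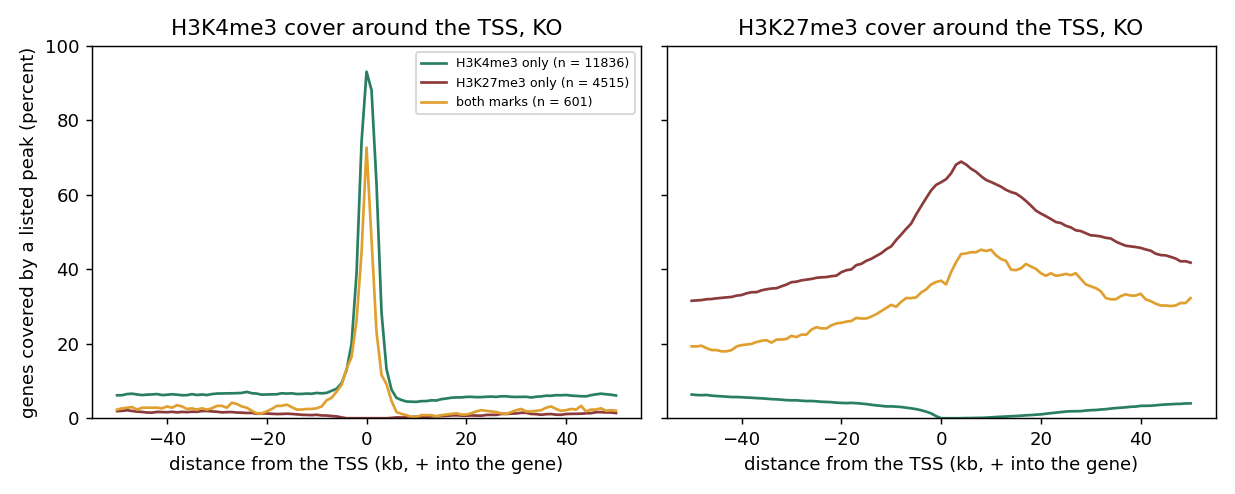
Share of genes covered by a listed H3K4me3 peak (left) or H3K27me3 peak (right) at each distance from the TSS in KO cells, with positive distances into the gene and 1 line per class. In genes with both marks, H3K27me3 cover was 36.9% at the TSS and 45.3% at 10 kb into the gene, while H3K4me3 cover was 72.7% at the TSS.

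Around the TSS the marks of genes with both followed different courses. H3K4me3 covered the TSS of 72.7% of these genes and 23.1% at 2 kb into the gene, against 93.1% and 62.9% of H3K4me3-only genes. H3K27me3 covered 19.3% of them at 50 kb before the TSS, 36.9% at the TSS and 45.3% at 10 kb into the gene. H3K27me3-only genes had 63.4% cover at the TSS. H3K4me3-only genes had next to none within the gene, as the classes require.

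The H3K4me3 of genes with both marks was weaker and narrower than that of H3K4me3-only genes. The median density was 188 scaled reads per kb (170 to 216) against 384 (380 to 388), a ratio of 0.491. The median width was 2400 bp (2200 to 2400) against 4200 bp, and the median of total scaled reads in the peak was 431 against 1626. The H3K4me3 peak covered the TSS in 72.0% (68.3 to 75.5%) of genes with both marks and in 91.5% (90.9 to 92.0%) of H3K4me3-only genes. The difference in density held within each class of gene length. For genes under 10 kb the medians were 210 and 364 scaled reads per kb, and for genes of 300 kb and over 184 and 374. With peaks within 1 kb of the TSS alone, the ratio of the medians was 0.393.

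H3K4me3 density differed by where the H3K27me3 peak lay. Where the H3K4me3 peak was inside H3K27me3, its median density was 117 scaled reads per kb (96.5 to 135) and its width 1600 bp. Where the peaks overlapped in part, the medians were 396 (363 to 434) and 4600 bp, close to the 384 of H3K4me3-only genes. Gaps of at most 10 kb came with 250 (205 to 285) and wider gaps with 192 (169 to 251). Position is defined by the peaks' ends, so width is not independent of it. Partly overlapping H3K4me3 peaks were listed for another gene too in 63.8% of cases (52.0 to 74.1%), against 12.7% (8.48 to 18.7%) of those inside and 34.2% of H3K4me3-only peaks. With peaks listed for 1 gene alone, the densities were 113 inside (n = 144), 374 at partial overlaps (n = 25) and 358 for H3K4me3 only (n = 7783).

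**Figure D2:**
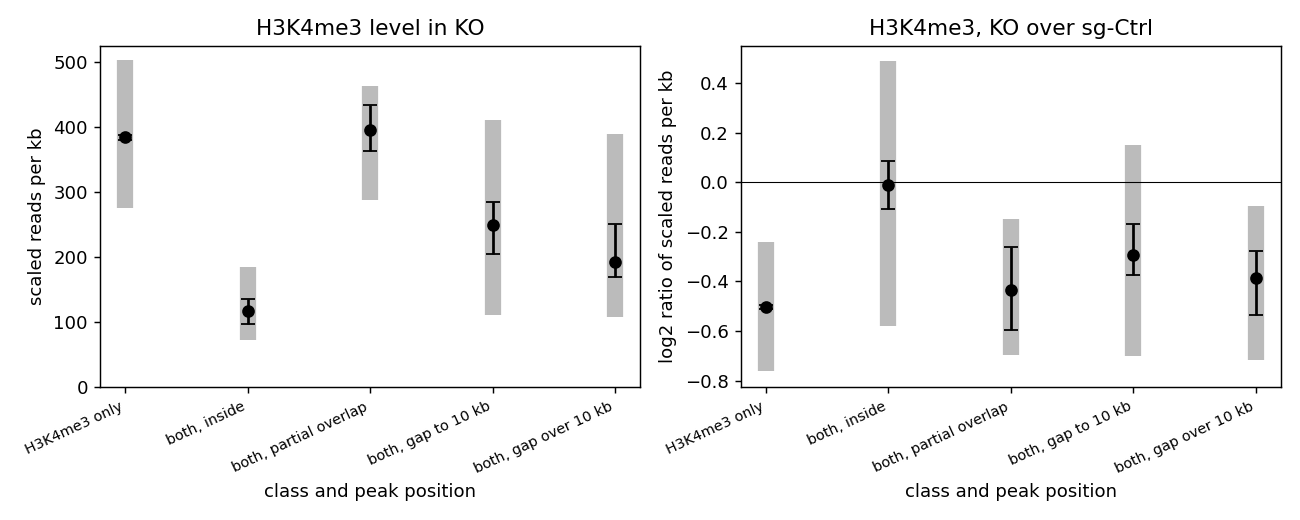
H3K4me3 scaled reads per kb in KO (left) and the log2 ratio of KO over sg-Ctrl (right), by class and by the position of the H3K27me3 peak. Points are medians with 95% order-statistic intervals and grey bars the middle 50% of genes; genes with H3K4me3 inside H3K27me3 had the lowest median level, 117, and a median log2 ratio of -0.01.

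H3K27me3 density was similar with and without H3K4me3. The median was 33.7 scaled reads per kb (32.8 to 35.3) in genes with both marks and 34.0 (33.7 to 34.3) in H3K27me3-only genes, a ratio of 0.991. The extent of the mark differed. The densest H3K27me3 peak had a median width of 17000 bp (15000 to 20000) against 27000 bp (26000 to 29000), and H3K27me3 covered a median of 35.8% (31.7 to 41.4%) of the gene against 84.3% (81.7 to 87.0%). At least 90% of the gene was covered in 16.6% of genes with both marks and in 46.6% of H3K27me3-only genes. Genes with H3K4me3 inside H3K27me3 had 76.7% of their length covered. Those with peaks more than 10 kb apart had 11.1%. H3K27me3 was under 2-fold over IgG in 24.1% of genes with both marks and 23.1% of H3K27me3-only genes, and in 38.2% of genes with the wider gaps. Both marks reached 2-fold in 447 of the 601 genes (74.4%). In 23 genes the H3K27me3 peak, and in 8 the H3K4me3 peak, held fewer reads than IgG did after scaling.

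**Figure D3:**
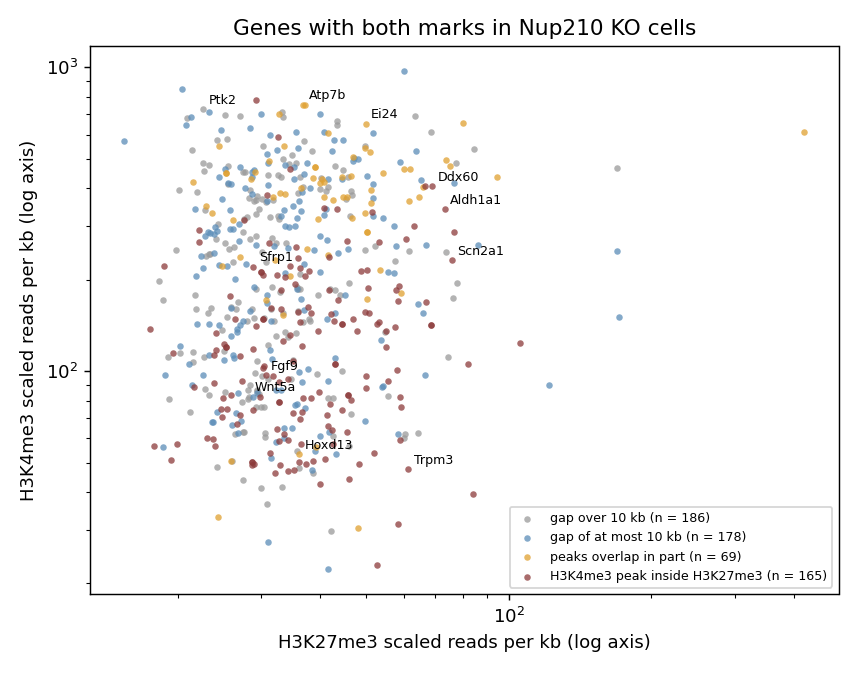
H3K4me3 against H3K27me3 scaled reads per kb (both log axes) for the genes with both marks in KO whose peaks lie on 1 chromosome, 1 point per gene, coloured by peak position. Genes with H3K4me3 inside H3K27me3 lie lower on the H3K4me3 axis (median 117) than those with partial overlap (median 396).

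Genes with both marks were long. Their median length was 49.5 kb (43.9 to 60.4), against 18.5 kb for H3K4me3 only and 18.3 kb for H3K27me3 only. Of genes with H3K4me3, the share that also had H3K27me3 was 2.28% (1.85 to 2.80%) under 10 kb, 6.01% (5.25 to 6.88%) at 30 to 100 kb, 12.2% (10.4 to 14.3%) at 100 to 300 kb and 37.3% (30.3 to 44.8%) at 300 kb and over. Gene length enters the classing, since any H3K27me3 peak that meets the gene body counts. In the same order, the share of genes with both marks whose peaks overlapped fell from 57.0% (46.4 to 66.9%) to 23.8% (15.0 to 35.6%). Within genes of 10 to 100 kb alone, 4.36% of H3K4me3 genes had both marks, and 40.9% of those overlapped. With both peaks within 1 kb of the TSS, 224 genes kept both marks, 1.89% of H3K4me3 genes, and 84.3% of their peak pairs overlapped.

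**Figure D4:**
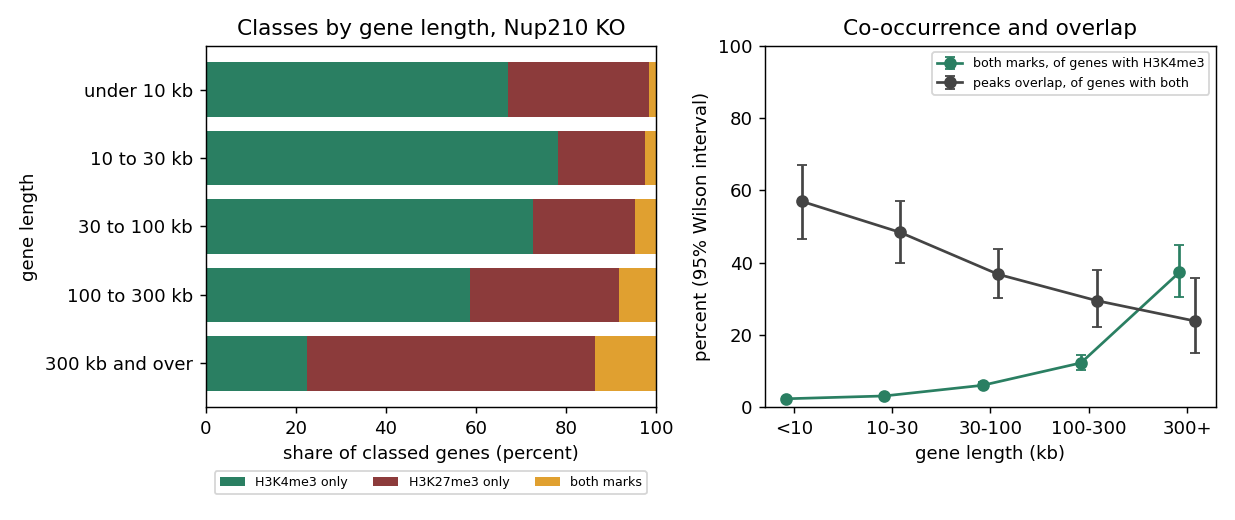
Classes of genes by gene length in KO (left, stacked shares) and, right, the share of H3K4me3 genes that also carry H3K27me3 and the share of genes with both marks whose peaks overlap, with 95% Wilson intervals. Co-occurrence was 37.3% at 300 kb and over, where overlap was 23.8%.

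By chromosome, the share of H3K4me3 genes with both marks lay between 1.89% on chromosome 13 (0.998 to 3.55%) and 8.03% on chromosome 16 (5.77 to 11.1%). H3K27me3 was on 14.3% of the classed genes of chromosome 4, the lowest share, and on 40.9% of those of the X chromosome, the highest.

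The 10 genes ranked highest by both densities together, with overlapping peaks at least 2-fold over IgG in both marks, were mostly at domain borders. They were Gm10373, Cldn25, Ei24, Spa17, Ddx60, Smtnl1, Atp7b, Mdh1b, 1700022E09Rik and Rag2. In 9 of the 10 the peaks overlapped in part, in 7 the H3K4me3 peak was listed for another gene too, and in 7 it covered the TSS. Atp7b, a copper-transporting ATPase (chr8:21994348-22060074), had 5473 H3K4me3 reads (752 scaled reads per kb). Its densest H3K27me3 peak had 36.8 scaled reads per kb and met the H3K4me3 peak by 1800 bp. The 2 H3K27me3 peaks of Atp7b together covered 93.8% of its length. Rag2, a recombinase of lymphocyte receptor genes (chr2:101624748-101632528), had 402 and 65.8 scaled reads per kb. Its H3K4me3 peak was also listed for another gene and lay 1053 bp from the Rag2 TSS. Ei24, an endoplasmic reticulum protein involved in autophagy, had 652 and 49.9, although H3K27me3 covered just 2.15% of the gene.

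Ddx60, an interferon-induced RNA helicase (chr8:61928089-62037695), was the exception, with its H3K4me3 peak of 5200 bp inside H3K27me3. It carried 2845 H3K4me3 reads (95% Poisson interval 2741 to 2952), or 406 scaled reads per kb, in KO and 720 in sg-Ctrl. Its H3K27me3 peak of 225000 bp covered the whole 110 kb gene in KO at 69.0 scaled reads per kb. In sg-Ctrl the listed H3K27me3 peak was denser, 97.9 scaled reads per kb, and reached 0.695 kb of the gene. Aldh1a1, a retinaldehyde dehydrogenase whose promoter is printed above, lay inside H3K27me3 as well, with 341 and 73.2 scaled reads per kb and the gene wholly covered.

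The 5 genes with both marks and the longest H3K27me3 cover had little H3K4me3. Csmd3, a large cell-surface protein, had 792 kb under H3K27me3, 65.4% of the gene, and 120 H3K4me3 reads in a 1000 bp peak. Npas3, a neuronal transcription factor, had 747 kb (90.8%) and a 2600 bp H3K4me3 peak at 57.7 scaled reads per kb, inside the domain. Trpm3, a cation channel, had 733 kb (86.1%) and an H3K4me3 peak of 77 reads (60.8 to 96.2), 47.6 scaled reads per kb. Sox6 had 485 kb (85.5%) with 51 H3K4me3 reads. 1700007G11Rik had 463 kb (97.9%) and 277 H3K4me3 reads. In these 5 genes the H3K4me3 density was between 47.6 and 171 scaled reads per kb, below the 188 that is the median of genes with both marks.

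At the other end, the widest H3K4me3 peaks of the class were those of Mir101c (23200 bp), Sfi1 (21400 bp), Ddx25 (18000 bp), Nfia (14600 bp) and 9530052E02Rik (11200 bp). Mir101c had 0.36 times the scaled IgG reads for H3K4me3 and 0.06 times for H3K27me3, and Sfi1 1.74 and 0.29 times. Ddx25, a testis RNA helicase, had the highest H3K4me3 density of the class, 972 scaled reads per kb, from a peak listed for 3 genes and 600 bp from H3K27me3. Nfia, a transcription factor of glia and other lineages, had 341 scaled reads per kb at its promoter, and H3K27me3 over 25.5% of its 537 kb. Among H3K4me3-only genes, Junb, Prdx2 and Hook2 were listed with a wide H3K4me3 peak of 28200 bp, which was assigned to 4 genes.

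Among developmental regulators, 11 genes of 3 lists carried both marks. Of 44 HOX and ParaHox factors, which set position along the body axis, 12 had H3K4me3 only, 9 H3K27me3 only, 4 both and 19 neither. The 4 were 16% of the 25 classed, beside 3.55% of all classed genes. Hoxc10 had a 1200 bp H3K4me3 peak at 120 scaled reads per kb inside a 7000 bp H3K27me3 peak. That H3K4me3 peak was listed for another gene too and lay 3605 bp from the Hoxc10 TSS. Hoxc10 was H3K27me3 only in sg-Ctrl. Hoxd12 and Hoxd13 shared 1 H3K4me3 peak of 172 reads (147 to 200), at 53.2 scaled reads per kb in KO and 32.3 in sg-Ctrl. It lay 1013 bp from the Hoxd12 TSS and 3291 bp from the Hoxd13 TSS, and met the Hoxd13 H3K27me3 peak by 400 bp. Hoxd3 had 186 scaled reads per kb of H3K4me3, and H3K27me3 25.4 kb away over 5.51% of the gene. The posterior genes Hoxb9 and Hoxb13 were H3K27me3 only in KO and had neither mark in sg-Ctrl. In sg-Ctrl 7 of the 44 factors had H3K4me3 only, 8 H3K27me3 only, 4 both and 25 neither, so H3K4me3-only genes differed more in number. The KO library for H3K27me3 was 3.16 times as large, and its part in these classes was not tested.

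Of 100 other developmental transcription factors, 3 had both marks (6.67% of those classed), 24 H3K4me3 only, 18 H3K27me3 only and 55 neither. Lhx4, a LIM-homeodomain factor of pituitary and motor neuron development, had H3K4me3 at 170 scaled reads per kb inside an 18000 bp H3K27me3 peak at 22.3. In sg-Ctrl its H3K4me3 was 104. Neurog2, a proneural factor, had 132 H3K4me3 reads (110 to 157), with H3K27me3 1.20 kb away, and was H3K27me3 only in sg-Ctrl. Lhx9 had 120 H3K4me3 reads at 1.75-fold over IgG and H3K27me3 at 0.58-fold, both weak. Gata3, which specifies luminal mammary cells, was H3K4me3 only with a 24800 bp peak, and Pax3 and Tbx20, of neural crest and heart, were H3K27me3 only over 90.5% and 80.7% of their length.

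Wnt, Bmp and Fgf ligands and their antagonists (60 genes) had 4 members with both marks (10.8% of those classed), 19 with H3K4me3 only, 14 with H3K27me3 only and 23 with neither. Sfrp1, a secreted Wnt antagonist, had an H3K4me3 peak of 773 reads (719 to 829) wholly inside a 23000 bp H3K27me3 peak, at 221 scaled reads per kb in KO and 74.8 in sg-Ctrl. Fgf9, an epithelial and mesenchymal growth factor, had 96.7 in KO and 115 in sg-Ctrl inside an H3K27me3 peak of 91000 bp over the whole gene. Wnt5a and Wnt5b, ligands of noncanonical Wnt signalling, had 82.2 and 108 scaled reads per kb, with H3K27me3 18.6 and 65.2 kb away. Wnt5a had neither mark in sg-Ctrl. Dkk1, a Wnt antagonist, was H3K27me3 only, with its whole length under the mark.

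**Figure D5:**
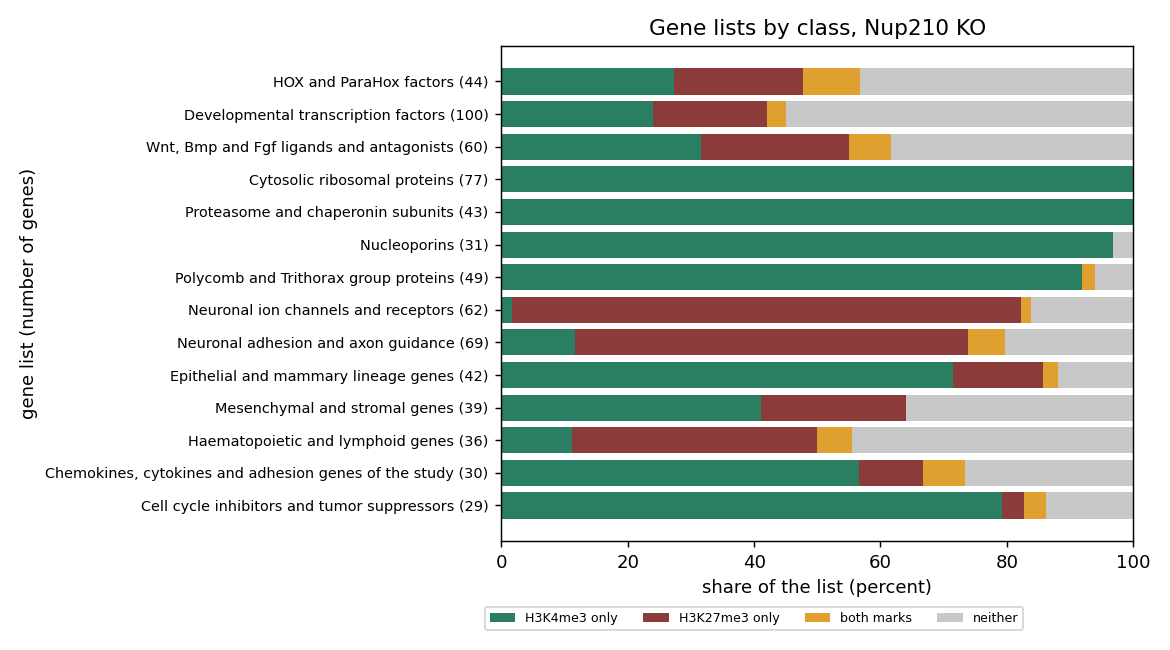
Share of each gene list in the classes of KO cells, with the number of genes in brackets after the list's name. Ribosomal proteins and proteasome and chaperonin subunits are wholly H3K4me3 only, 80.6% of neuronal ion channels and receptors are H3K27me3 only, and genes with both marks make up at most 9.09% of any list.

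Housekeeping lists held no H3K27me3-only gene, against 26.6% of all classed genes. All 77 cytosolic ribosomal protein genes and all 43 proteasome and chaperonin genes were H3K4me3 only, as were 30 of 31 nucleoporin genes. The ribosomal protein genes had a median of 463 scaled reads per kb over 4800 bp, and the proteasome and chaperonin genes 558 over 5200 bp. Of 49 Polycomb and Trithorax group genes 45 were H3K4me3 only and 1 had both. That gene was Phc2, a subunit of Polycomb repressive complex 1. Its H3K4me3 density was 256 scaled reads per kb in KO and 507 in sg-Ctrl, and its H3K27me3 peak lay 46.4 kb upstream of the H3K4me3 peak. Eed, a core subunit of the complex that writes H3K27me3, had H3K4me3 at 787 and no H3K27me3.

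Neuronal genes were the largest H3K27me3-only lists. Of 62 ion channel and receptor genes 50 (80.6%) were H3K27me3 only, 1 H3K4me3 only and 1 both. Of all classed genes 26.6% were H3K27me3 only, with 33.2% at 100 to 300 kb and 64.0% at 300 kb and over. The part of gene length in the neuronal lists was not tested. Ion channel and receptor genes with H3K27me3 had a median of 118 kb under the mark. In its densest peak Kcnq3, a potassium channel, had the most H3K27me3 reads of the list, 82643. Its 4 H3K27me3 peaks together covered 91.1% of the gene. Scn2a1, a sodium channel, was the member with both marks. Its H3K4me3 peak of 374 reads (337 to 414) lay inside an H3K27me3 peak of 157000 bp, at 231 scaled reads per kb in KO and 96.1 in sg-Ctrl. Of 69 adhesion and axon guidance genes 43 (62.3%) were H3K27me3 only, 8 H3K4me3 only and 4 had both (7.27% of those classed). These were Csmd3, Ctnna3, Cdh13 and Sema5a. Ctnna3, an alpha-catenin, had a strong promoter peak of 574 scaled reads per kb, 4.20 kb from H3K27me3. Cdh13, a cadherin without a cytoplasmic tail, had 46.2, and its H3K27me3 lay 167 kb away. Sema5a, a semaphorin, had 67 H3K4me3 reads, 0.4 kb from the nearest of its 6 H3K27me3 peaks, and its densest H3K27me3 peak, elsewhere on the gene, was 340000 bp wide.

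Lineage lists differed in class. Of all classed genes, 69.8% were H3K4me3 only and 26.6% H3K27me3 only. Of 42 epithelial and mammary genes 37 were classed, 30 as H3K4me3 only, 6 as H3K27me3 only and 1 as both. The H3K27me3-only genes included Elf5, a regulator of alveolar cells, Ehf and Prlr, the prolactin receptor, which was wholly covered. Tfap2c, a luminal transcription factor, had both marks, with 204 H3K4me3 reads (177 to 234) at 50.5 scaled reads per kb in a peak 591 bp from the TSS. Of 36 haematopoietic genes 20 were classed, 14 as H3K27me3 only, 4 as H3K4me3 only and 2 as both. Lmo2, a haematopoietic transcription regulator, had 207 scaled reads per kb of H3K4me3 inside a 94000 bp H3K27me3 peak. Btk, a B cell kinase, shared its H3K4me3 peak with another gene and had H3K27me3 4.60 kb away. Of 39 mesenchymal and stromal genes 25 were classed, 16 as H3K4me3 only, 9 as H3K27me3 only and none as both. Their split was close to that of all classed genes.

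Of 30 chemokine, cytokine and adhesion genes taken from the study, which chose several of them on these samples, 17 were H3K4me3 only, 3 H3K27me3 only, 2 had both and 8 neither. In sg-Ctrl the counts were 22, 1, 2 and 5. Ptk2, which encodes focal adhesion kinase, had both marks. Its promoter carried 8413 H3K4me3 reads (8234 to 8595), or 726 scaled reads per kb, in KO and 1422 in sg-Ctrl. Its H3K27me3 peaks covered 42.0 kb of the gene in KO and 44.0 kb in sg-Ctrl, and the nearest lay 87.2 kb from the promoter peak. The densest was at 0.51 times scaled IgG. Il6, a proinflammatory cytokine, had 66 H3K4me3 reads (51.0 to 84.0) at 1.40-fold over IgG and H3K27me3 3.8 kb away. Cxcl1, Il1a and Itgb2 were H3K4me3 only at 221, 73.8 and 89.5 scaled reads per kb in KO and 574, 276 and 327 in sg-Ctrl. Ccl2, Cxcl3, Csf2 and Itga7 had neither mark in KO and H3K4me3 only in sg-Ctrl. Postn, a matricellular protein, was H3K4me3 only in sg-Ctrl, at 72.6 scaled reads per kb, and H3K27me3 only in KO, at 1.38-fold over IgG. The chemokine genes Ccl7 and Ccl20 were H3K27me3 only in KO and had neither mark in sg-Ctrl. Of 29 cell cycle inhibitor and tumor suppressor genes, 23 were H3K4me3 only, 1 (Wt1) H3K27me3 only and 1 (Wwox) both.

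Most genes with both marks in KO also had both in sg-Ctrl, 456 of 601 (75.9%, 72.3 to 79.1%). A further 68 (11.3%) were H3K4me3 only in sg-Ctrl, 67 (11.1%) H3K27me3 only and 10 had neither. From the other side, 723 genes had both marks in sg-Ctrl (4.33% of the genes classed there), of which 210 (29.0%) were H3K4me3 only in KO and 46 H3K27me3 only. H3K4me3-only genes were in the same class in sg-Ctrl in 96.8% of cases and H3K27me3-only genes in 81.2%. Of the latter, 792 (17.5%) had neither mark in sg-Ctrl, and the KO library for H3K27me3 was 3.16 times as large as that of sg-Ctrl. The part of library size in these counts was not tested. Of the 456 genes with both marks in both lines, peaks overlapped in both lines in 145, in KO alone in 31, in sg-Ctrl alone in 43 and in neither in 237.

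Genes with both marks in KO differed by their class in sg-Ctrl. That class rests on whether each mark was listed in sg-Ctrl. Lower KO values of a mark not listed there therefore follow in part from the grouping. Those that were H3K27me3 only in sg-Ctrl had a median H3K4me3 density of 63.9 scaled reads per kb (n = 67) in a peak of 1200 bp. Those with both marks in both lines had 222 and 2600 bp (n = 456). Those that were H3K4me3 only in sg-Ctrl had H3K4me3 of 245, but H3K27me3 over a median of 4.61 kb of the gene (n = 68), against 14 kb. Genes with H3K4me3 inside H3K27me3 were H3K27me3 only in sg-Ctrl in 20% of cases (14.6 to 26.8%) and H3K4me3 only in 7.27% (4.21 to 12.3%). For gaps over 10 kb these shares were 9.14% (5.78 to 14.1%) and 14% (9.72 to 19.7%).

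Densities of the same genes were set side by side in KO and sg-Ctrl. Most genes had a lower H3K4me3 density in KO, where the peaks were also wider. Of H3K4me3-only genes in both lines, 7234 had a wider densest peak in KO and 3118 a narrower one (medians 4200 and 3800 bp), and of genes with both marks in both lines 286 and 109. The part of width in the densities was not tested. The median log2 ratio was -0.51 (-0.51 to -0.50) in H3K4me3-only genes and -0.29 (-0.34 to -0.23) in genes with both marks. Where H3K4me3 was inside H3K27me3 it was -0.01 (-0.11 to 0.08, n = 130), and where peaks overlapped in part -0.43 (-0.59 to -0.26, n = 66). Of all 12197 genes with H3K4me3 in both lines, 9.66% were at least 2-fold lower in KO and 0.525% at least 2-fold higher. Among genes with both marks the shares were 10.3% (7.98 to 13.2%) and 3.63% (2.33 to 5.59%), and among those inside H3K27me3 11.5% (7.12 to 18.2%) and 8.46% (4.79 to 14.5%). Sfrp1 (log2 ratio 1.56), Scn2a1 (1.27) and Mir101c (1.30) were among the 11 of these that were higher. The Mir101c peak held 0.36 times the scaled IgG reads in KO, so its ratio does not show a gain of the mark. Genes were classed by peaks in KO, so a gene whose H3K4me3 was too low to be listed in KO is not among them. In the 456 genes with both marks in both lines, H3K27me3 density was lower in KO in 346 and higher in 110, with medians of 35.3 and 42.8 scaled reads per kb, and its cover was larger in 158 and smaller in 179.

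NUP210 and NPC peaks of sg-Ctrl cells were counted on the genes of each class. A NUP210 peak was listed for 48.4% (44.4 to 52.4%) of genes with both marks, 46.4% (45.0 to 47.9%) of H3K27me3-only genes and 25.1% (24.3 to 25.8%) of H3K4me3-only genes. The NPC shares were 47.3% (43.3 to 51.3%), 40.8% (39.4 to 42.2%) and 23.6%. The order of the classes changed with gene length. In the same order of classes, the NUP210 shares were 29.5% (21.0 to 39.8%), 41.7% and 7.34% under 10 kb and 38.4%, 34.5% and 18.04% at 10 to 30 kb. At 30 to 100 kb they were 43.9% (37.1 to 50.9%), 45.4% and 42.6%, and at 100 to 300 kb 60.5% (51.8 to 68.5%), 62.3% and 63.8%, where the intervals of the 3 classes overlapped. At 300 kb and over they were 84.1% (73.2 to 91.1%), 88.7% and 71.7%. A NUP210 peak met the H3K27me3 peak itself in 38.3% (34.5 to 42.2%) of genes with both marks and in 45.4% of H3K27me3-only genes. It met the H3K4me3 peak in 20.3% (17.3 to 23.7%) of genes with both marks and in 15.97% of H3K4me3-only genes. In genes with both marks the densest H3K27me3 peak had a median width of 17000 bp and the densest H3K4me3 peak 2400 bp. The part of peak width in these shares was not tested. Most NUP210 peaks were weak, with a median of 1.19-fold over IgG. With all lists held to at least 2-fold, 4.03% of genes with both marks had a NUP210 peak.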

How the data were processed

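Each mark was profiled by ChIP-seq in 1 KO and 1 sg-Ctrl library, and NUP210 and NPC in 1 sg-Ctrl library each. The authors called peaks against IgG with SICER, whose windows measured 200 bp (H3K4me3) or 1000 bp (other targets), and deposited 6 lists that pair peaks with genes. Each deposited line gives ChIP and IgG read counts, a p-value, a fold ratio over IgG scaled to library size and an FDR. The deposited fold counts an IgG count of 0 as 0.25 reads. The submitters' processing notes name Trimmomatic, STAR, Picard, Bowtie2, mm9, mm10 and NCBIM37 without roles. Gene starts or ends of 88.7% of 8318 genes matched by symbol lay within 50 bp of RefSeq GRCm38.p6.

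From these lists, genes were classed by symbol, and library ratios, scaled reads per kb, gene cover and peak positions were computed in Python 3.11.15 with pandas 2.3.3 and numpy 2.4.6. Intervals came from scipy 1.17.1 and plots from matplotlib 3.10.9. Shares carry 95% Wilson intervals, medians order-statistic intervals and read counts exact Poisson intervals. Reads are not independent molecules. Promoter CpG was read from NCBIM37 by gene name, because the RefSeq promoter table, which had been planned, matched fewer than 80% of genes. RefSeq was used for the printed sequences. The scripts were tested on simulated data for the classing in KO, with 4000 genes, where all 200 planted overlaps and all 200 planted gaps were recovered and a planted density ratio of 0.5 came back as 0.499.

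Genes named in the text are the 10 with overlapping peaks, at least 2-fold in both marks, and the highest geometric mean of both densities, the 5 with the longest H3K27me3 cover, the 5 with the widest H3K4me3 peak in each class, the members of 14 gene lists with both marks, up to 3 single-mark members per list and class with the most reads, and genes the study named. One of the widest H3K4me3 peaks under this rule is not reported here. Csf2, genes with H3K27me3 over another TSS and symbols on several chromosomes were named after their values were seen. Printed promoters were taken from that ranking, on autosomes, passing over genes without a RefSeq entry or whose TSS lay outside the peaks. The members and lists were chosen with earlier results of these data known. Alternatives were a stricter FDR, fold or overlap, peaks within 1 kb of the TSS, genes of 10 to 100 kb, autosomes only, and all peaks of a gene added up. RNA-seq (4 samples) was not analysed here, and IgG (3 samples) entered only as the counts in the lists.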

Additional observations from a re-analysis of the deposited data

How the results depend on the processing

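Of 70 values recomputed for 11 results under other settings, 51 stayed close to the value reported and 19 moved. Close meant within a fixed factor for counts and within the reported interval for the other results. A reversal could be called only for ratios whose interval excluded 1, so the count of 0 reversed does not bear on the other results. Restricted to genes of 10 to 100 kb, there were 7136 H3K4me3-only genes, 1981 H3K27me3-only genes and 325 genes with both marks. The latter were 4.36% of H3K4me3 genes, and 42.2% of them had a NUP210 peak. With peaks within 1 kb of the TSS, 224 genes had both marks (1.89% of H3K4me3 genes), 84.3% had overlapping peaks, the H3K4me3 density ratio was 0.393, 65.2% had both marks in sg-Ctrl and the median CpG ratio was 0.659. At 2-fold or more over IgG, 3.8% of H3K4me3 genes had both marks and 4.03% of these had a NUP210 peak. At an FDR of at most 0.01 the NUP210 share was 35.7%. An overlap of at least 1 kb gave 28.3%. Using only H3K4me3 peaks listed for 1 gene, an alternative chosen after seeing the data, left 7877 H3K4me3-only genes, a density ratio of 0.414, a width ratio of 0.474 and 71.2% with both marks in sg-Ctrl. No paired analysis was possible because every mark was profiled in a single library of each line, so no replicate could be left out either. Median fold over IgG was 1.10 in the NPC list, 1.19 in the NUP210 list and 2.39 in the KO H3K27me3 list.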

Other observations

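Gene families outside the lists above differed in class, and those named here were chosen after their values were seen. Of 695 classed genes whose symbols begin with Olfr, the odorant receptors, 687 (98.8%) were H3K27me3 only, against 26.6% of all classed genes. Of 157 Vmn vomeronasal receptor genes 156 were H3K27me3 only. The Olfr genes had 404 H3K27me3 peaks among them and the Vmn genes 152, so genes shared peaks and are not separate observations. Collagen genes had the largest share with both marks among 82 families with at least 20 classed genes, 5 of 33 (15.2%, beside 3.55% of all classed genes). These were Col12a1, Col14a1, Col23a1, Col4a5 and Col4a6. Col4a5 and Col4a6, which encode basement membrane chains, shared 1 H3K4me3 peak of 276 reads at 146 scaled reads per kb. Col14a1 had H3K4me3 at 105 scaled reads per kb inside an H3K27me3 peak of 115000 bp.

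Some single genes with both marks are given as values, with no tally of the groups they belong to. Gbp2, a guanylate-binding protein, had 343 scaled reads per kb of H3K4me3 inside an H3K27me3 peak of 100000 bp. Gbp3 met the same H3K27me3 peak and had 326, with its H3K4me3 peak 2.80 kb from H3K27me3. Gbp7 had 314 inside another H3K27me3 peak, and Gbp5 135. Gbp3 and Gbp7 were H3K4me3 only in sg-Ctrl, while Gbp2 and Gbp5 had both marks there. Ifit1 had 143 scaled reads per kb, inside H3K27me3 over the whole gene. The caspase genes Casp1 and Casp4 lay in 1 H3K27me3 peak of 49000 bp at 1.94-fold over IgG, with H3K4me3 of 112 and 71.4 scaled reads per kb, and were H3K4me3 only in sg-Ctrl.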
